A study of Mus musculus with 3 samples.

Results

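Isolated domains are chromatin domains that border unassigned sequence on both sides. In the deposited domain table of embryonic mouse limb buds, 312 of 4124 domains had a gap above 0 bp to both the previous and the next domain on their chromosome. The set was chosen by the deposited start and end of each domain alone. Its members were 7.64% of the 4086 domains that had a neighbour on each side, and at 112 Mb they held 5.09% of the 2211 Mb in domains. They are compared here with the 2373 domains that touched both neighbours and, where useful, with the 1401 domains that had a gap on 1 side. The other 38 domains were the first or last of a chromosome. Coordinates are mm9 with starts counted from 1, and upstream means towards the lower coordinate.

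The study used Hi-C, a sequencing assay of DNA contacts inside the nucleus, to look for architectural stripes in the limb. All 3 libraries formed 1 group: wild-type fore- and hindlimb buds at embryonic day E11.5, prepared as technical replicates from 1 tissue pool (8 embryos in the protocol text, 10 in the design text). Each library also carries a cell type label of G4 ESC, which goes against its tissue label of limb bud, and a table of domains holds no marker genes that could settle this. Each domain has a single value for the 3 libraries combined. Replicate error and depth are therefore unknown, and no difference below was put to a test. Wilson intervals of shares and order-statistic intervals of medians (both 95%) treat domains as units and cover their number only.

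Chromatin domains are stretches of a chromosome whose parts contact each other more than they contact sequence outside. They are commonly explained by cohesin, a ring-shaped complex that extrudes loops of chromatin until it meets CTCF bound at a domain boundary. A stripe arises on a contact map where a single anchor contacts much of a domain, which gives the domain a one-sided look. TopDom, named in the deposited table's title, marks stretches as domains, as boundaries or as gaps. Only domains are listed in the table used here, so the kind of sequence between an isolated domain and its neighbours is unknown.

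The gaps that set isolated domains apart were mostly short. The smallest possible gap was 25 kb, the bin size of the domain edges. The upstream gap had a median of 125 kb (quartiles 75 and 250 kb) and the downstream gap a median of 150 kb (quartiles 75 and 275 kb). Both ran from 25 to 7025 kb. The smaller of both gaps was 25 kb in 35 domains, 50 kb in 77, 75 to 100 kb in 85, 125 to 200 kb in 82 and above 200 kb in 33. The sides were often unequal: the larger gap was at least 3 times the smaller in 116 domains, and both gaps were equal in 31. The larger gap lay upstream in 135 domains and downstream in 146. In 156 domains, 50.0% of the set, both gaps together were longer than the domain between them. These values come from the coordinates that chose the domains and are a description.

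**Figure D1:**
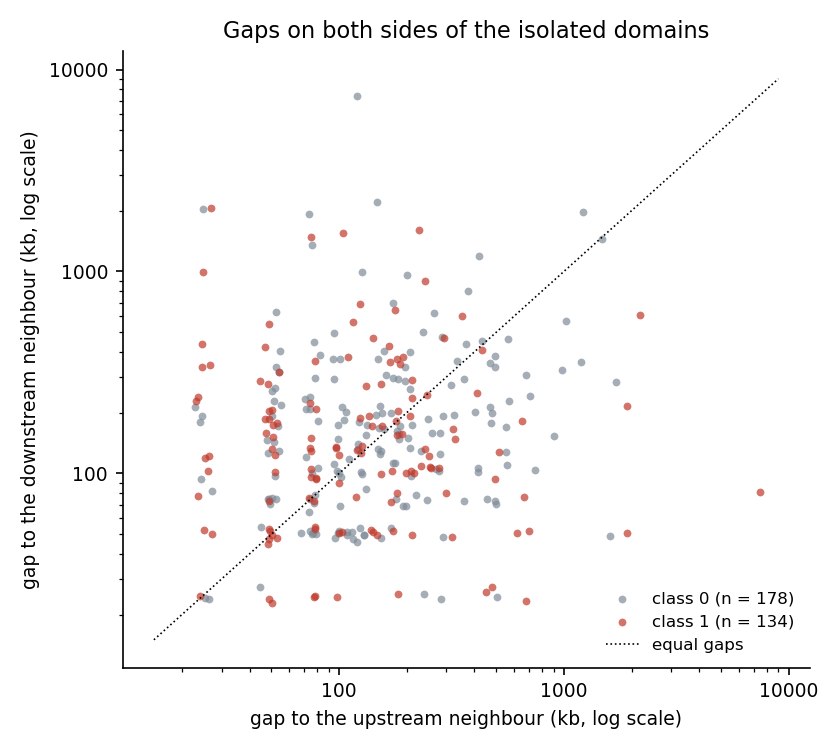
Gap to the upstream neighbour (horizontal) against gap to the downstream neighbour (vertical), both in kb on log scales, for the 312 isolated domains, with points moved slightly at random so that ties show. Red points are class 1 and grey points class 0; most gaps lie between 50 and 275 kb, and 21 domains have a gap of 1000 kb or more.

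The domains set farthest from both neighbours were short. The largest smaller gap belonged to a domain of 175 kb on chromosome 14 from 5975001 to 6150000, with 1450 kb upstream and 1425 kb downstream. Next came 2 domains on chromosome 7. The first, at 21850001 to 22100000 (250 kb), had gaps of 1175 and 1975 kb, and the second, from 9575001 to 9850000 (275 kb), had gaps of 2025 and 600 kb. A domain of 225 kb on chromosome 3 from 88350001 to 88575000 had gaps of 950 and 550 kb, and one of 150 kb on chromosome 12 from 84700001 to 84850000 had 450 kb on each side. Of these 5, only the second on chromosome 7 was in class 1.

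The most unequal gaps were at a single stretch of 7025 kb on chromosome 7, which had an isolated domain at either end. The domain before it (39200001 to 39350000, 150 kb) was class 0 with a probability of 0.13, and its upstream gap was 125 kb. The domain after it (46375001 to 46575000, 200 kb) was class 1 with a probability of 0.69, and its downstream gap was 75 kb. The next most unequal domains had over 2000 kb on one side. The first spanned 85050001 to 85250000 of chromosome 1, with 25 kb upstream and 2075 kb downstream. The second, at 7450001 to 7550000 of chromosome 7, had 25 and 2025 kb. After it came 2 domains whose gaps differed by the same 1975 kb, at 177050001 to 177200000 of chromosome 2 (2025 and 50 kb) and at 19850001 to 19950000 of chromosome 8 (150 and 2125 kb).

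Many isolated domains had an isolated neighbour. The rule itself favours this, because a neighbour of an isolated domain already has a gap on the side they share. A gap on its other side is then enough to make it isolated, so the counts here are a description. They formed 187 runs of consecutive isolated domains. Of these runs, 110 held a single domain, 44 held 2, 23 held 3 and 10 held 4 or more, so 202 domains (64.7%) had an isolated neighbour. Neighbouring isolated domains share the gap between them, and the 312 domains bordered 499 of the 1021 gaps in the table. A gap on one side went with a gap on the other: 30.7% of 1015 domains with an upstream gap also had a downstream gap, against 22.7% of 3071 domains that touched their upstream neighbour.

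The longest runs had 6 members and lay on chromosomes 12 and 13. The run on chromosome 12, from 18675001 to 20875000, held 4 class 1 domains. Its members were 200, 175, 450, 50, 400 and 250 kb long, and their probabilities were 0.37, 0.51, 0.89, 1.00, 0.51 and 0.39. The run on chromosome 13, from 64550001 to 68050000, also held 4 class 1 domains, with lengths of 900, 100, 175, 275, 225 and 850 kb and probabilities of 1.00, 0.63, 0.63, 0.13, 0.63 and 0.13. The single run of 5, on chromosome 3 from 86800001 to 90525000, held no class 1 domain. It was named after its values were seen.

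The share of domains that were isolated was lowest on chromosome 10, at 2.71% (6 of 221, Wilson interval 1.25 to 5.80%), and highest on chromosome 5, at 12.5% (31 of 248, interval 8.95 to 17.2%). These intervals do not overlap, but the chromosomes were picked as the extremes of 19, and the intervals do not allow for that choice. Chromosome 17 (19 of 157, 12.1%) stood next to chromosome 5, and their intervals overlap widely. Each chromosome was also divided into 5 equal parts between its first and last domain edge. Isolated domains were 9.17% of domains in part 1 (74 of 807, interval 7.37 to 11.4%) and 5.40% in part 2 (43 of 796, interval 4.04 to 7.20%). Parts 3 to 5 held 8.25%, 7.01% and 7.95%, with intervals that overlap both of those. Within 5 Mb of the first or last domain edge lay 9.29% of isolated domains (interval 6.55 to 13.0%) and 7.59% of touching domains (interval 6.59 to 8.72%).

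Isolated domains were shorter than touching ones. Their median length was 325 kb (interval 300 to 350 kb, n = 312), against 425 kb in touching domains (interval 425 to 425 kb, n = 2373) and 400 kb in all 4124. The domains with a gap on 1 side lay between, at 375 kb (interval 375 to 400 kb). The difference was wider in means, at 360 kb (SE over domains 12.4) against 575 kb (SE 10.9), and long domains were rare among the isolated. Only 5 isolated domains (1.60%) exceeded 1000 kb, against 241 touching domains (10.2%), and 36.9% were 250 kb or shorter, against 13.8%. The isolated median was lower than the touching median on 17 of 19 chromosomes. It was equal on chromosome 1 and higher on chromosome 18, where 10 isolated domains had a median of 500 kb against 400 kb. Length comes from the same coordinates as the gaps, so this too is a description. The neighbours of isolated domains were also short, with a median of 325 kb over both sides, against 425 kb for the neighbours of touching domains, and many of them are themselves isolated.

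The longest isolated domain, on chromosome 5 from 69975001 to 71850000, measured 1875 kb. It had gaps of 50 and 75 kb and a probability of 0.38. Next came 25775001 to 27000000 of chromosome 12 (1225 kb) and 104825001 to 105900000 of chromosome 4 (1075 kb). Last of these 5 were 2 domains of 1025 kb, at 21400001 to 22425000 of chromosome 1 and at 68650001 to 69675000 of chromosome 18. All 5 had direction TRUE, and those on chromosomes 12 and 1 were class 1, with probabilities of 0.75 and 1.00. The shortest were 2 class 1 domains of 50 kb, at 108800001 to 108850000 of chromosome 9 and at 20050001 to 20100000 of chromosome 12. Next came 7 domains of 75 kb, of which 6 were class 1. Those at 151100001 to 151175000 of chromosome 2 and 130000001 to 130075000 of chromosome 4, for example, had a probability of 0.99. The single class 0 domain of the 7, at 91950001 to 92025000 of chromosome 3, had 0.41. It was also the single class 0 domain among the 36 isolated domains with an imbalance above 1, at 1.13.

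The authors' random forest gives each domain a probability, and class 1, taken here as the stripe class, holds the domains at 0.5 or more. Class 1 held 134 of 312 isolated domains, 42.9% (interval 37.6 to 48.5%), where the share over all domains was 35.1%. It held 783 of 2373 touching domains, 33.0% (interval 31.1 to 34.9%). The intervals of isolated and touching domains do not overlap. Domains with a gap on 1 side had a share of 36.8% (516 of 1401, interval 34.3 to 39.4%), and this interval overlaps both. The isolated share was higher than the touching share on 16 chromosomes and lower on chromosomes 3, 15 and 19. On chromosome 19 it was 1 of 8 domains and on chromosome 16, at the other extreme, 5 of 7. That class 1 domains border gaps more often was already known from these data when the set was chosen, so these shares are no separate support for it.

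The higher share was largest among short domains. At 250 kb or less, class 1 held 45.2% of isolated domains (52 domains, interval 36.4 to 54.3%), 31.9% of domains with a gap on 1 side (95 of 298) and 25.1% of touching domains (82 of 327, interval 20.7 to 30.0%). Over all domains of this length group the share was 31.3% (238 of 761, interval 28.1 to 34.7%). Lengths differed within this group: 21 isolated and 9 touching domains were 100 kb or shorter, with class 1 shares of 71.4% and 55.6%. In this band and in those up to 150, 200 and 250 kb the isolated share was the higher, with overlapping intervals in each. Above 250 and up to 500 kb the isolated share was 43.1% (62 of 144, interval 35.3 to 51.2%) and the touching share 36.0% (422 of 1173, interval 33.3 to 38.8%), and these intervals overlap. Between 500 and 1000 kb the shares were 37.5% (18 of 48) and 33.9% (214 of 632). Above 1000 kb there were only 5 isolated domains, 2 of them class 1. Weighting both groups to the make-up of all domains by these wider length groups left a difference of 9.19 percentage points, against 9.95 without weighting.

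**Figure D2:**
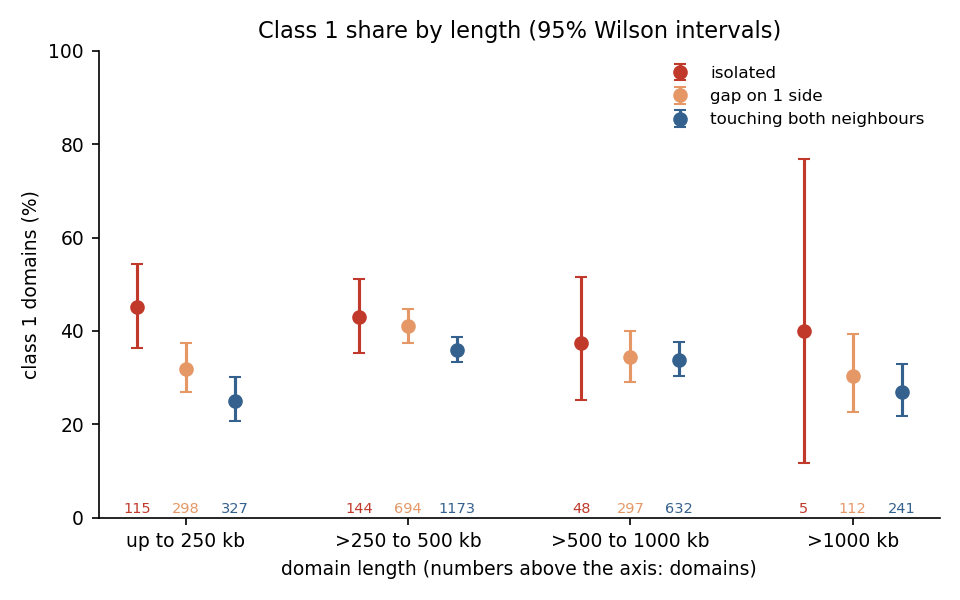
Share of class 1 domains in percent (vertical) by domain length (horizontal) for isolated domains, domains with a gap on 1 side and domains touching both neighbours. Points are shares, bars are 95% Wilson intervals over domains and the coloured numbers count domains; the isolated and touching intervals are apart for domains of up to 250 kb and overlap in the other 3 length groups.

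The class 1 share also went with the size of the smaller gap. It was 65.7% at 25 kb (23 of 35, interval 49.2 to 79.2%), 46.8% at 50 kb (36 of 77, interval 36.0 to 57.8%) and 37.5% at 75 kb or more (75 of 200, interval 31.1 to 44.4%). With both gaps at 100 kb or more it was 36.6% (56 of 153, interval 29.4 to 44.5%), near the 35.1% of all domains. This order was seen in short domains. At 250 kb or less, class 1 held 19 of 24 isolated domains at 25 kb (79.2%), 14 of 25 at 50 kb, 11 of 28 at 75 to 100 kb, 6 of 24 at 125 to 200 kb and 2 of 14 above 200 kb (14.3%). The first of these shares has an interval of 59.5 to 90.8% and the last one of 4.01 to 39.9%. Median lengths over these gap sizes were 150, 175, 200, 200 and 175 kb. Short isolated domains with both gaps at 75 kb or more had a share of 28.8% (19 of 66, interval 19.3 to 40.6%), and its interval overlaps that of short touching domains. In isolated domains above 250 kb the share moved between 36.4% and 46.6% over the same gap sizes, in no order.

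**Figure D3:**
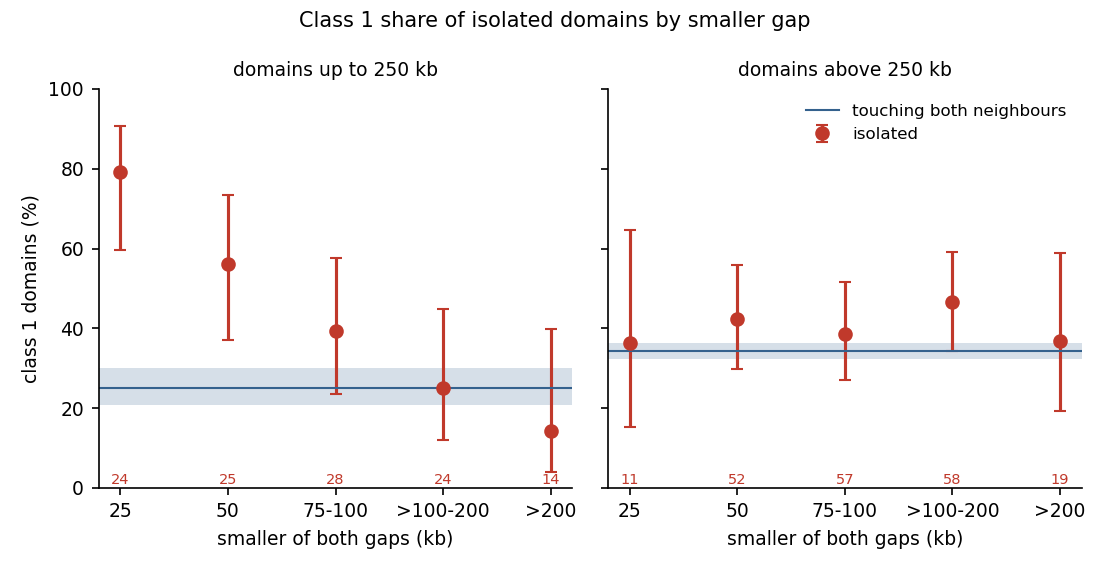
Share of class 1 domains in percent (vertical) by the smaller of both gaps in kb (horizontal), for isolated domains of up to 250 kb (left) and above 250 kb (right). Points are shares with 95% Wilson intervals over domains, red numbers count domains, and the blue line and band are the share and interval of touching domains of the same lengths; in short domains the share goes from 79.2% at 25 kb to 14.3% above 200 kb.

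The same high share stood just outside the limit that defines an isolated domain. Among the domains that touched one neighbour and had a gap of 25 kb to the other, 64.9% were class 1 (48 of 74), beside 65.7% of the isolated domains with a smaller gap of 25 kb. Their median lengths were 250 and 200 kb, their median imbalance scores 0.636 and 0.660 and their median probabilities 0.66 in each. At a gap of 50 kb the shares were 31.0% (66 of 213, interval 25.2 to 37.5%) with a gap on 1 side and 46.8% in isolated domains, and these intervals overlap.

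Among the values given here, the deposited probability had intervals that lay apart only in its share at exactly 1. Its median was 0.39 in isolated domains (interval 0.34 to 0.47, n = 310) and 0.34 in touching domains (interval 0.32 to 0.35, n = 2373), and the intervals overlap. With both gaps at 100 kb or more the isolated median was 0.30, below that of touching domains. A probability of exactly 1 was given to 36 isolated domains, 11.6% (interval 8.51 to 15.7%), and to 161 touching domains, 6.78% (interval 5.84 to 7.87%). Over all domains with a probability it was given to 7.54% (311 of 4122). A value of 0.9 or more was held by 62 isolated domains, 20.0% (interval 15.9 to 24.8%), and by 15.0% of touching domains (interval 13.7 to 16.5%). These intervals overlap, and the 16.2% of all domains that reached it lies within the isolated interval. At the lower end the groups were alike, with 16.1% of isolated and 16.9% of touching domains below 0.1. Fewer isolated domains lay between 0.4 and 0.6, 8.06% against 11.3%, with overlapping intervals. Within class 1 the median probability was 0.89 in both groups.

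Imbalance, a score of the authors whose formula the sources used here do not give, had a higher median in isolated than in touching domains. It was 0.376 (interval 0.334 to 0.441, quartiles 0.148 and 0.710, n = 310) against 0.302 in touching domains (interval 0.285 to 0.316, quartiles 0.139 and 0.563). The isolated median was the higher on 15 of 19 chromosomes. It fell to 0.346 with both gaps at 50 kb or more and to 0.340 at 100 kb or more, which brought the difference from 0.0738 to 0.0433 and 0.0381. Domains with a gap on 1 side had a median of 0.328 (interval 0.313 to 0.351), and this interval overlaps that of isolated domains. Scores above 1 were found in 11.6% of isolated domains (36 of 310, interval 8.51 to 15.7%) and 6.70% of touching domains (159 of 2373, interval 5.76 to 7.78%), and in 7.47% of all domains. Class 1 domains have high imbalance, and within a class the groups lay closer. In class 1 the medians were 0.769 (interval 0.703 to 0.848, n = 134) and 0.695 (interval 0.671 to 0.718, n = 783), and in class 0 they were 0.188 and 0.20, with overlapping intervals in each class. Every isolated class 1 domain but 5 had an imbalance of at least 0.470, and those 5 lay below 0.2. In touching domains 53 of 783 class 1 domains lay below 0.2. The related imbalance difference score had medians of 0.151 in isolated and 0.132 in touching domains, with overlapping intervals.

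The highest imbalance of the set, 4.77, belonged to the domain of 50 kb on chromosome 12 from 20050001 to 20100000, which lies in the run of 6 and has a gap of 50 kb on each side. Next came a domain of 100 kb on chromosome 4 from 60525001 to 60625000 at 3.49, with gaps of 25 and 900 kb. Then followed 80125001 to 80275000 of chromosome 9 at 3.13, 177250001 to 177350000 of chromosome 2 at 2.98 and 130000001 to 130075000 of chromosome 4 at 2.12. All 5 were 150 kb or shorter and had a gap of 25 or 50 kb on one side. The first 4 had a probability of 1.00. They were also the 4 highest by the rule for probability, followed by a domain of 475 kb on chromosome 13 from 33500001 to 33975000 (imbalance 1.65).

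At the other end, 3 isolated domains had an imbalance of exactly 0, and the table held 4 such domains. They were at 19850001 to 19950000 of chromosome 8 and at 5975001 to 6150000 and 7575001 to 7675000 of chromosome 14. Each bordered a gap of more than 1400 kb. Their probabilities were 0.39, 0.39 and 0.01, and all were class 0 with direction FALSE. The next lowest were 0.00235, at 133525001 to 133700000 of chromosome 7, and 0.00395, at 75000001 to 75375000 of chromosome 15. The 2 domains of the table with no finite imbalance and no probability were both isolated. The first, at 60400001 to 60500000 of chromosome 4, was separated by 25 kb from the domain with an imbalance of 3.49. The second, at 32600001 to 32800000 of chromosome 7, had 25 kb on each side.

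A cosine score of exactly 0 marked isolated domains more often than others. Over all domains with a score, 1.16% (48 of 4122) had a cosine of 0. Of these 48, 28 were isolated (9.03% of 310, interval 6.32 to 12.7%), 17 had a gap on 1 side (1.21% of 1401, interval 0.759 to 1.93%), 2 touched both neighbours (0.0843% of 2373) and 1 was at a chromosome end. The 28 isolated domains lay on 9 chromosomes, with 7 on chromosome 12 and 6 on chromosome 7. An isolated neighbour was held by 24 of the 28, where 64.7% of the whole set had one. The median length of the 28 was 187.5 kb, against 325 kb in the other 282 isolated domains with a score. The larger of their gaps had a median of 512.5 kb, against 200 kb, and 10 of them bordered a gap of 1000 kb or more, against 11 of the 282. Neighbours share a gap, so some of these long gaps were counted for 2 of the 28. Class 1 held 19 of the 28 (67.9%, interval 49.3 to 82.1%) and 40.8% of the 282. Their median imbalance was 0.642 (range 0 to 4.77), against 0.350. Whether these zeros are measured values or stand for a score that could not be computed is unknown. The median cosine was 0.609 in isolated domains (interval 0.575 to 0.650) and 0.656 in touching domains (interval 0.646 to 0.666), with intervals that overlap. The isolated median was the higher on 10 chromosomes and the lower on 9, and with both gaps at 100 kb or more it was 0.672.

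**Figure D4:**
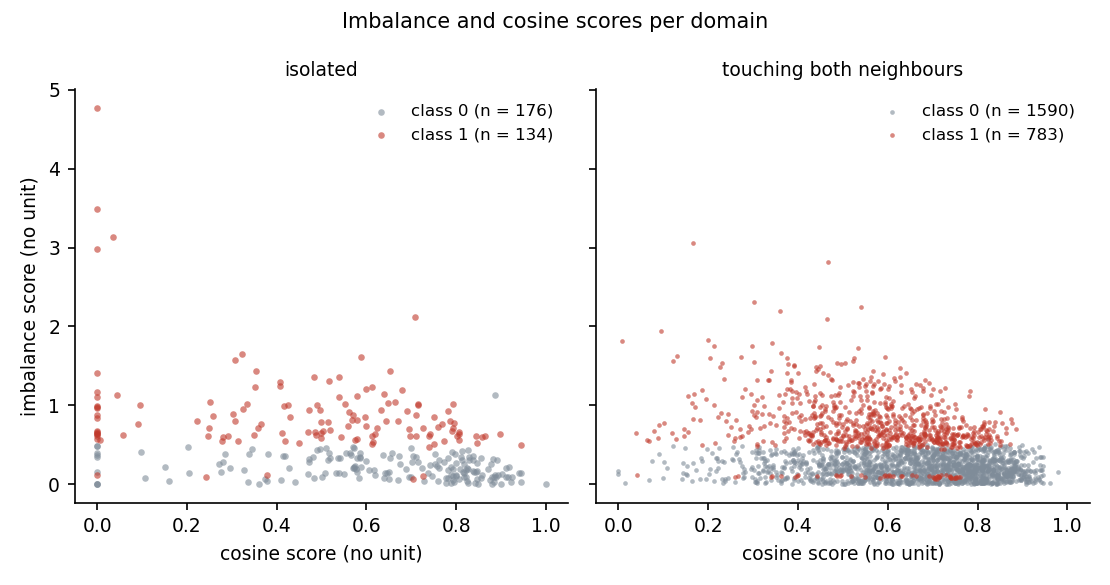
Imbalance score (vertical) against cosine score (horizontal), neither with a unit, for isolated domains (left) and domains touching both neighbours (right), 1 point per domain, red for class 1 and grey for class 0. The column of points at a cosine of 0 holds 28 isolated and 2 touching domains, and 3 of the isolated points with an imbalance above 2.9 lie in it.

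The direction of a domain, TRUE or FALSE (the side that each stands for is unknown here), was about evenly split. TRUE was given to 168 isolated domains, 53.8% (interval 48.3 to 59.3%), where 49.2% of all domains were TRUE, and to 48.4% of touching domains (interval 46.4 to 50.4%). In class 1 the counts were 72 TRUE and 62 FALSE, where 48.6% of all class 1 domains were TRUE. The side of the larger gap went with no clear difference over the whole set, with 55.5% TRUE where the downstream gap was larger (81 of 146, interval 47.4 to 63.3%) and 49.6% where the upstream gap was larger (67 of 135, interval 41.3 to 58.0%).

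A gap of 25 kb did go with direction. Among class 1 isolated domains with a gap of 25 kb upstream, 13 of 14 were TRUE (92.9%, interval 68.5 to 98.7%), and with 25 kb downstream 7 of 10 were FALSE. Counting the 22 with such a gap on exactly 1 side, 19 were TRUE with it upstream or FALSE with it downstream (86.4%, interval 66.7 to 95.3%). In domains outside the set, those with a gap on 1 side, the same held for 43 of 48 (89.6%, interval 77.8 to 95.5%). Class 0 domains did not show it, with 3 of 10 isolated and 10 of 26 others. With both gaps at 50 kb or more, class 1 isolated domains held 57 TRUE and 54 FALSE. They then had 50.9% TRUE where the downstream gap was larger (28 of 55) and 50.0% where the upstream gap was (21 of 42). This relation was looked for after the values had been seen.

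Seen from the gap, a FALSE domain before 25 kb and a TRUE domain after it often faced each other. Over all domains, 23 pairs of class 1 domains lay 25 kb apart, and 19 ran FALSE then TRUE, 4 were both TRUE and none ran TRUE then FALSE. An isolated domain was in 9 of these pairs, of which 6 ran FALSE then TRUE and 3 were both TRUE. Where no isolated domain took part, 13 of 14 ran FALSE then TRUE. Among the 380 class 1 pairs that touched, this order made up 24.7% (94 pairs, interval 20.7 to 29.3%). In pairs with an isolated member that were 50 kb apart it was 4 of 14, and at more than 100 kb it was 11 of 40. Both domains were isolated in 3 of the 6 pairs. The first pair, on chromosome 4, joined 130000001 to 130075000 with 130100001 to 130175000. The second, on chromosome 9, joined 108700001 to 108775000 with 108800001 to 108850000, and the third, on chromosome 17, joined 13500001 to 13775000 with 13800001 to 13975000. The probabilities were 0.99 and 1.00 in the first pair, 1.00 and 1.00 in the second and 0.73 and 0.76 in the third. These pairs were named after their values were seen.

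The authors also give each domain a second pair of edges, called tuned, on a grid of 10 kb. In isolated domains the mean inward shift was 27.5 kb at the start (SE 1.55) and 29.9 kb at the end (SE 1.44). In touching domains these were 29.4 kb (SE 0.473) and 30.3 kb (SE 0.469), so the means differed by less than 2 SE. A tuned edge outside its domain was found in 61 isolated domains (19.6%, interval 15.5 to 24.3%) and 329 touching domains (13.9%, interval 12.5 to 15.3%), and in 15.3% of all domains. Domains with a gap on 1 side had 16.7% (234 of 1401, interval 14.8 to 18.7%), an interval that overlaps both. Within the isolated set it was found in 35 of 134 class 1 domains (26.1%) and 26 of 178 class 0 domains (14.6%).

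Starts that faced a gap of 25 kb lay outside most often. The 22 tuned starts facing 25 kb had a mean shift of -1.36 kb (SE 7.53) and a median of -22.5 kb, and 12 lay outside the domain (54.5%, interval 34.7 to 73.1%). No start among them lay near the domain edge: 12 were 20 to 40 kb outside and the other 10 were 15 to 65 kb inside. Of the 12, 9 lay beyond the whole gap, in the neighbouring domain. Starts facing larger gaps were on average between 24.4 and 34.4 kb inside, and 27 of 290 lay outside. The 16 tuned ends facing 25 kb had a mean shift of 16.6 kb (SE 8.78), with 4 outside, and the 42 facing 50 kb a mean of 17.7 kb (SE 4.84), with 9 outside. Beyond that the mean was 32.7 to 33.0 kb. Domains with a gap on 1 side showed it for both edges, with 18 of 34 starts and 26 of 40 ends outside at 25 kb.

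**Figure D5:**
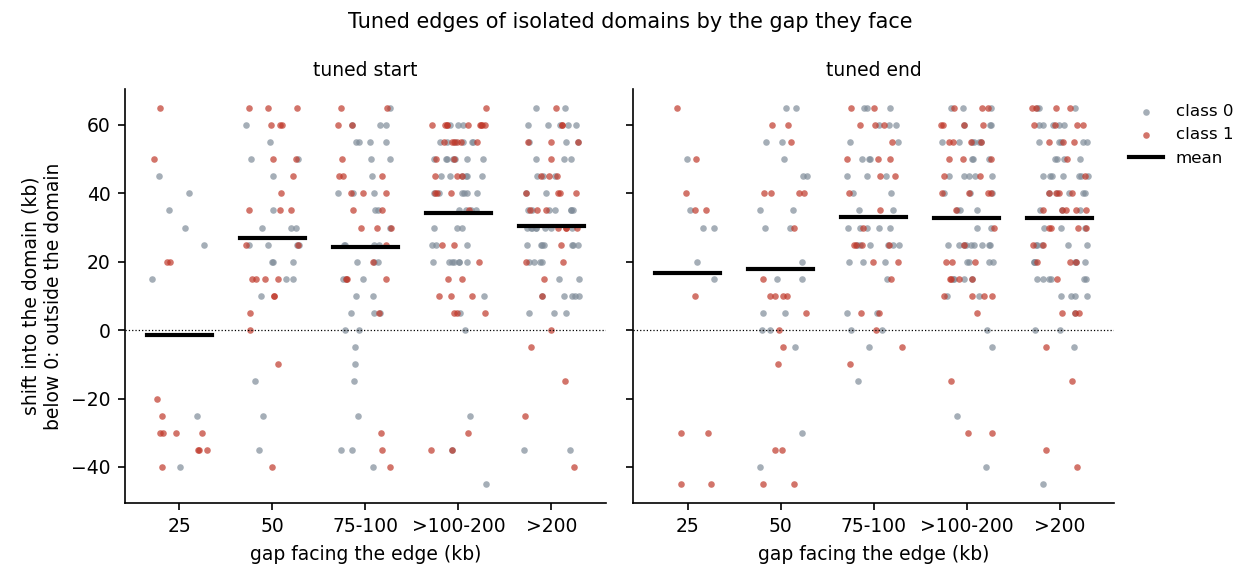
Shift of the tuned start (left) and the tuned end (right) into the domain in kb (vertical; values below 0 lie outside) by the size of the gap that the edge faces in kb (horizontal), 1 point per isolated domain, red for class 1, grey for class 0, with the mean as a black bar. At a gap of 25 kb the starts fall into a cluster inside and a cluster outside the domain, with a mean of -1.36 kb, and at larger gaps most points lie inside.

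In class 1, the outward edges at gaps of 25 kb were on the side that went with direction. Of the 13 class 1 isolated domains of direction TRUE with 25 kb upstream, 10 had the tuned start outside. Of the 7 of direction FALSE with 25 kb downstream, 4 had the tuned end outside. The single class 1 domain of direction FALSE with 25 kb upstream and the 3 of direction TRUE with 25 kb downstream had that edge inside. So few domains of the other direction cannot show whether the outward edges depend on direction. In class 0, 2 of 8 starts at 25 kb lay outside, 1 in a TRUE and 1 in a FALSE domain, and 0 of 6 ends. In the pair on chromosome 9 the first domain's tuned end lay 45 kb outside and the second domain's tuned start 30 kb outside, so the tuned domains overlap although the original ones are 25 kb apart. The pair on chromosome 4 showed the same shifts, and in the pair on chromosome 17 both edges lay inside, by 35 and 20 kb.

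Over all gap sizes, class 1 isolated domains had the start less far inside in TRUE domains (19.2 kb, SE 3.89, n = 72) than in FALSE domains (35.6 kb, SE 3.21, n = 62), and the end the other way round (33.3 kb, SE 3.22, against 20.8 kb, SE 3.79). The start value less the end value was -14.1 kb (SE 4.71) in TRUE and 14.8 kb (SE 4.64) in FALSE domains. Both include the edges at gaps of 25 kb, where 10 of 13 TRUE starts and 4 of 7 FALSE ends lay outside. The values without those edges were not computed, so they are no trait shown at all gap sizes. The touching class 1 domains gave -9.55 kb (SE 1.57, n = 375) and 7.07 kb (SE 1.58, n = 408). In class 0 the isolated values were -7.50 kb (SE 3.24) and 0.732 kb (SE 3.85). The touching class 0 domains gave -5.64 kb (SE 1.15, n = 774) and 3.48 kb (SE 1.06, n = 816), with the same signs as in class 1.

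The class 1 share was also compared along the chromosomes. Class 1 held 54.1% of isolated domains in part 1 of the 5 equal parts (40 of 74, interval 42.8 to 64.9%), then 48.8% (21 of 43), 40.6% (26 of 64), 36.2% (21 of 58) and 35.6% in part 5 (26 of 73, interval 25.6 to 47.1%). The intervals of parts 1 and 5 overlap. Touching domains had 32.4% in part 1 (141 of 435, interval 28.2 to 36.9%) and 31.5% in part 5 (157 of 498), with no part above 36.6%. In part 1 the intervals of isolated and touching domains do not overlap, and in the other parts they do. The intervals do not allow for singling out 1 of 5 parts. Part 1 also held all 7 isolated domains of chromosome 12 with a cosine score of exactly 0. Class 1 held 67.9% of all isolated domains with that score and 40.8% of the others with a score. The part 1 share without domains of that score was not computed, nor was the share of all domains in each part.

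The neighbours of isolated domains were class 1 in 38.0% of cases (237 of 624, interval 34.3 to 41.9%; a neighbour is counted once for each isolated domain it flanks), against 33.0% around touching domains (1568 of 4746, interval 31.7 to 34.4%). These intervals overlap narrowly, and the 35.1% of all domains lies within that of the neighbours of isolated domains. Many of these neighbours are isolated themselves: each of the 125 pairs of consecutive isolated domains enters the count from both sides. The interval treats such repeated counts as separate. The share among neighbours outside the set was not computed. Around domains with a gap on 1 side the share was 37.7% (1057 of 2802, interval 35.9 to 39.5%), close to that around isolated domains. Of the 125 pairs of consecutive isolated domains, 24 were both class 1 (19.2%) and 46 both class 0. Of all touching pairs, 12.3% were both class 1 (380 of 3084). Class 1 held 42.9% of isolated and 35.1% of all domains. The higher share alone gives more such pairs among isolated domains. Whether neighbours were alike in class beyond that was not tested. The directions in the 24 were both FALSE in 10, FALSE then TRUE in 9, both TRUE in 3 and TRUE then FALSE in 2.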

How the data were processed

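Hi-C contacts of 3 libraries underlie 1 deposited domain table. The submitters' processing notes name BWA, Juicer and the mm9 build. The deposited table's name gives TopDom, a quantile threshold of 0.98 and a random forest threshold of 0.5. Per the file headers, the authors give each domain imbalance, imbalance difference and cosine scores, and a probability, which is a fraction in steps of 0.01. The sources used here give no formulas, tool versions or depth.

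Domains were sorted by chromosome and start, starts being on the 25 kb grid and thus counted from 0. Gaps are the next start minus the end before it. Infinite imbalance was left out. Intervals (95%) were computed with scipy 1.17.1 and pandas 2.3.3 in Python 3.11.15. Grouping was tested on 50 simulated tables and was right in all of them. Alternatives were wider gap minimums, another comparison group, means for medians and each chromosome left out.

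Regions named are the 5 extremes of smaller gap, gap inequality, length (both ends), imbalance (both ends) and class 1 probability (ties by imbalance, then position), the longest runs, and the chromosomes of highest and lowest share. The members, lists and comparisons were chosen with earlier results of these data known. The gene table at hand is of another build, so no gene, motif or sequence was set against these regions.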

Additional observations from a re-analysis of the deposited data

How the results depend on the processing

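No paired analysis was possible because all libraries share 1 group and 1 table, which also left no way to leave out a library. Values were recomputed under 283 alternatives, 228 of which left out 1 chromosome. Of all alternatives, 274 stayed within the spread given by the intervals or, for the count of isolated domains, which has none, within a set ratio. The 8 that moved further and the 1 that reversed were all among the 55 that kept every chromosome. Leaving out 1 chromosome changes few domains, so those alternatives could hardly leave the spread. For some results the spread exceeded the difference, as for median probability (0.05, spread 0.0667), so staying within it does not show that the difference held. The sign of a difference turned in 6. Leaving out a chromosome kept every difference on its side: the class 1 share difference between isolated and touching domains stayed between 8.59 and 11.8 percentage points and the median length difference between -125 and -100 kb. Requiring gaps of at least 100 kb on both sides left 153 domains. In these the class 1 share difference was 3.61 percentage points, the median probability difference -0.04, the median cosine difference turned from -0.0475 to 0.0159, the summed tuned edge shift exceeded that of touching domains by 5.98 kb and the difference in cosine scores of 0 was 5.14 percentage points. The median imbalance difference fell from 0.0738 to 0.0433 at 50 kb and 0.0381 at 100 kb, and was 0.0481 against domains with a gap on 1 side. The cause was not tested. Against domains with a gap on 1 side the median length difference was -50 kb. The mean length difference was -215 kb, and the median of the summed tuned edge shift differed by 5 kb, against -2.22 kb for means. The alternatives for cosine scores of 0 and for direction at 25 kb were chosen after seeing the data.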
